A study of Homo sapiens with 2 samples.

Results

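The anchors near the ends of the autosomes were examined in an H3K27ac HiChIP data set of HCT116, a human colorectal carcinoma cell line. HiChIP ligates DNA ends that are close together in the nucleus and then pulls down the ligated chromatin with an antibody, here against histone H3 acetylated at lysine 27, a mark of active promoters and enhancers. There were 2 replicates of untreated cells grown in standard medium and no other group, and the labels do not say whether the replicates came from separate cultures, so the spread between them may be technical. Each replicate gave a table of counts, in which a count is the number of paired-end tags that join 2 anchors of the same chromosome. The total counts on nuclear chromosomes were 1885470 and 2131462 in replicates 1 and 2.

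An anchor was taken as an end anchor when it began within 3 Mb of the lowest anchor of its chromosome or stopped within 3 Mb of the highest one. The short arms of the 5 acrocentric chromosomes were not used. By this rule 10666 of the 247256 autosomal anchors, 4.31%, lay near an end, and of these 4643 belonged to 17 p ends and 6023 to 22 q ends. The other 236590 autosomal anchors are called inner anchors. The anchors were read from the 2 count tables, so each has a count in at least 1 replicate by construction. Of the end anchors, 10632 had counts in replicate 1 and 10644 in replicate 2. A loop joins 2 different anchors whose midpoints lie no more than 2 Mb from each other, an end loop has at least 1 end anchor, and an inner loop has none. A strong loop has a count of 5 or more.

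The last megabases of human chromosomes lie next to the telomere, the repeat array that caps the DNA. Many chromosome ends are known for high GC content, dense genes and early replication, whereas others resemble the gene-poor interior of the arm. H3K27ac is deposited at active promoters and enhancers, and promoters of widely expressed genes usually lie in CpG islands, stretches in which the dinucleotide CG is not depleted.

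Base composition set the end anchors apart from the inner anchors. Their mean GC content was 49.8% ± 8.52 (SD over 10666 anchors), compared with 41.7% ± 6.43 over the 236590 inner anchors. CG dinucleotides numbered 24.5 per kb in end anchors and 10.3 per kb in inner anchors. A start site of a protein-coding gene lay in 9.38% of the end anchors and in 4.27% of the inner anchors. The end anchors were also wider, with a median of 2763.5 bp compared with 2538 bp, and 3.07% of them reached 10 kb compared with 1.66%. The sites of MboI, the enzyme that cut the chromatin at GATC, were nearly as dense at the ends (2.5 per kb) as inside (2.57 per kb).

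The following stretches show the base composition of single promoters in end anchors. Each is the 120 bases before the annotated start site of a gene whose start site lies in an end anchor, read 5′ to 3′ on the strand of the gene from GRCh37, with each CG in capitals. The first 5 genes belong to loops or anchors described below, and TRIML2 lies at the 4q end, where promoters and strong loops were scarce.
NTSR1 (chr20:61340068-61340187, plus strand): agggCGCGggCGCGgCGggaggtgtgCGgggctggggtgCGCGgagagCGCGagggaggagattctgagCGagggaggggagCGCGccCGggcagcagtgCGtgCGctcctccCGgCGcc
PAXX (chr9:139886754-139886873, plus strand): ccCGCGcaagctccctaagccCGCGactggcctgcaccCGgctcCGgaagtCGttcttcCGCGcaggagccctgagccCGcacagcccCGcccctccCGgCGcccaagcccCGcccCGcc
LCN12 (chr9:139846605-139846724, plus strand): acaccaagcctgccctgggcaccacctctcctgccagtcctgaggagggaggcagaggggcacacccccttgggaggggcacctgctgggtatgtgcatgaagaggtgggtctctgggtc
SBNO2 (chr19:1174268-1174387, minus strand): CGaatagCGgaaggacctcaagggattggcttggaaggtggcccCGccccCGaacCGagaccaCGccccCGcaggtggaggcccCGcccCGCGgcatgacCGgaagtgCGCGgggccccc
PLXNB2 (chr22:50746076-50746195, minus strand): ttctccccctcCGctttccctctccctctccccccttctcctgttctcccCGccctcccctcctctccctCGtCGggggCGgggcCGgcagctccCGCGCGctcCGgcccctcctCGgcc
TRIML2 (chr4:189030758-189030877, minus strand): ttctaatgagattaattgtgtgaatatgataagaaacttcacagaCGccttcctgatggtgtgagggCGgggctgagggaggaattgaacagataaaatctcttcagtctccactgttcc
These stretches held 18, 15, 0, 13, 11 and 2 CG dinucleotides in the order printed. Over the 1155 promoters in end anchors the median number in 120 bases was 15 (quartiles 10 and 19), and 98.6% held at least 1. The 11359 promoters in inner anchors had a median of 11 (quartiles 7 and 15), and 96.0% held at least 1. LCN12, which encodes a secreted lipocalin, was thus GC-rich without CG in this window, and the window of TRIML2 was poor in both. The low GC end 18p also held promoters rich in CG. Of the other 4 that were read in this way, CETN1, LPIN2 and SMCHD1 at 18p held 17, 19 and 22. PUM3 at 9p, also an end of low GC content, held 8, below the lower quartile of end promoters.

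A larger share of loops was strong near the ends than inside the chromosomes. In replicate 1, 451 of 49571 end loops were strong, 0.910% (exact binomial 95% interval 0.828 to 0.997), compared with 0.473% of 964398 inner loops. In replicate 2, 666 of 56518 end loops were strong, 1.18% (1.09 to 1.27), compared with 0.566% of 1096318 inner loops. Among all autosomal loops 0.494% and 0.596% were strong. The end share was 1.93 and 2.08 times the inner share in the 2 replicates. A large part of the strong end loops came from few ends. The q ends of chromosomes 8, 16 and 17 held 55, 53 and 60 of the 451 in replicate 1. In replicate 2 they held 75, 70 and 82 of the 666. Duplicates could not be told from separate molecules, and these intervals reflect counting error alone.

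The comparison was made within chromosomes, with the mean of both replicates, so that each autosome gave 1 difference. The strong-loop share was higher at the ends on 20 of 22 autosomes, and lower on chromosomes 4 and 18. The median difference was 0.35 percentage points, with a range from -0.07 on chromosome 18 to 1.28 on chromosome 8 (exact two-sided sign test, p = 0.000121, adjusted p = 0.000283 over the 7 measures compared). Chromosomes share the libraries and the cell line, so this test concerns the spread between chromosomes. When the lengths of the end loops were weighted to those of the inner loops of the same chromosome, the median difference was 0.34 points and the share was higher on 18 of 22 autosomes (exact sign test, adjusted p = 0.0076). With a window of 1 Mb in place of 3 Mb the call was lost (16 of 22 autosomes higher, exact sign test, adjusted p = 0.0918), and with a strong loop set at a count of 10 or more the median difference turned to -0.0059 points, higher on 10 of 22 autosomes.

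**Figure D1:**
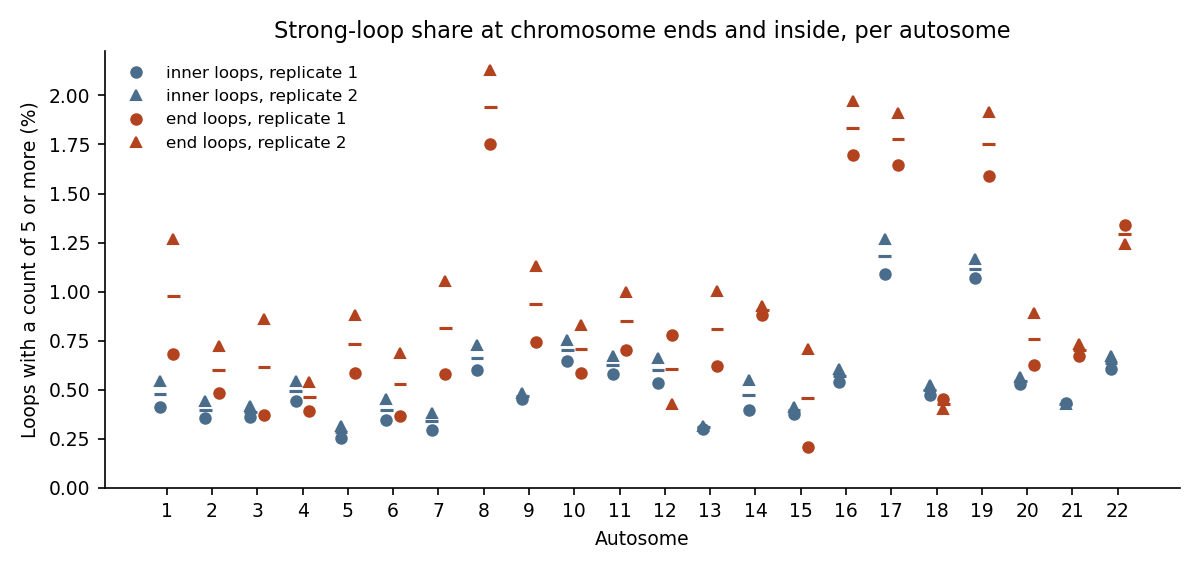
Share of loops with a count of 5 or more (%, vertical axis) for each autosome (horizontal axis), for end loops and inner loops; circles and triangles are replicates 1 and 2 and short bars their means. The end values lay above the inner values on most autosomes, with the highest means on chromosomes 8, 16, 17 and 19, while chromosomes 17 and 19 also had the highest inner values.

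End loops were slightly shorter. Their median length was 129 ± 3.06 kb (SD, n = 2), compared with 147 ± 4.07 kb for inner loops. The median was lower at the ends on 17 of 22 autosomes, with a median ratio of 0.906 (exact two-sided sign test, adjusted p = 0.0237). This call was lost with either replicate left out, with ratios of 0.931 and 0.875. For anchors within 2 Mb of an end the longest loops can run to 1 side only, which lowers the median length by position. No expectation was set for the median length. The ratio of the medians turned to 1.16 when only inner anchors 3 to 10 Mb from an end were used. Both anchors of an inner loop then had to lie in that band, so longer inner loops were left out more often. The share of loops under 20 kb was 18.3% ± 0.737 at the ends and 18.2% ± 0.657 inside, and it was higher on 11 and lower on 11 of the 22 autosomes (exact sign test, adjusted p = 1). Contacts over more than 2 Mb made up 16.7% ± 0.179 of the counts between different anchors at the ends and 25.5% ± 0.088 inside. Beyond 2 Mb most end anchors have partners on 1 side only, which lowers this share by position. No expectation was set for it.

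End anchors had fewer anchors within reach, a mean of 333 partners within 2 Mb compared with 415, as the sequence stops on 1 side. They nevertheless had 9.44 ± 0.865 loops per anchor, compared with 8.73 ± 0.791 for inner anchors, and the value at the ends was 1.08 times the inner value in each replicate. Among autosomes the difference did not pass the test (higher on 14 of 22, exact sign test, adjusted p = 0.334). The counts were therefore set against those expected for anchor pairs of the same distance over all nuclear chromosomes. End pairs had 1.25 ± 0.0109 times the expected count and inner pairs 0.991 ± 0.000486 times. The ratio of ends to inner was above 1 on 20 of 22 autosomes, all but 10 and 18, with a median of 1.19 (exact two-sided sign test, adjusted p = 0.000283). The counts that joined an anchor to itself were also more frequent, 10.9% ± 0.764 of the counts of end anchors compared with 8.01% ± 0.762, and higher on 21 of 22 autosomes (exact sign test, adjusted p = 7.68e-05). Chromosome 19 was the exception. The same-anchor share is taken over all counts of an anchor, contacts over more than 2 Mb included. It was not adjusted for the fewer partners or the greater width of end anchors.

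The surplus of strong loops was seen among short loops. Of the end loops under 10 kb, 5.19% and 6.77% were strong in replicates 1 and 2, compared with 2.51% and 3.01% of inner loops. Between 10 and 20 kb the shares were 3.09% and 4.34% at the ends and 1.58% and 2.01% inside. Between 20 and 50 kb they were 0.759% and 1.02%, compared with 0.402% and 0.531%. From 50 to 100 kb the intervals overlapped. Above 100 kb only 2 and 6 end loops were strong, and in the class of 200 to 500 kb the share was 0.00985% and 0 at the ends (the interval for 0 of 11619 reached 0.0317%) against 0.0221% and 0.0355% inside. The strong end loops had median lengths of 9.60 and 9.79 kb, and 62 of 451 and 105 of 666 spanned at least 20 kb.

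Loops between promoters were strong most often. Among end loops with a protein-coding start site in both anchors, 3.19% and 4.06% were strong, compared with 1.84% and 2.49% of such inner loops. With a start site in 1 anchor the shares were 1.44% and 1.87% at the ends and 0.845% and 0.995% inside. With none they were 0.637% and 0.825%, compared with 0.406% and 0.484%. In all 3 kinds the end share exceeded the inner share in both replicates, and the exact 95% intervals of ends and inner did not overlap. Pairs of promoters made up 3.48% of the end loops and 0.904% of the inner loops in replicate 1.

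When loops were compared at the same GC content, most of the difference was gone. Of the loops whose anchors had a mean GC content of 55% or more, 1.75% and 2.16% were strong at the ends and 1.64% and 2.04% inside, with overlapping intervals. The end loops of this class were longer, with medians of 117 and 123 kb compared with 83.0 and 90.4 kb inside. Between 50% and 55% the shares were 0.638% and 0.983% at the ends, compared with 0.912% and 1.05%. Loops of the highest class made up 33.7% and 33.8% of the end loops and 3.02% and 3.03% of the inner loops, and they held 292 of the 451 and 413 of the 666 strong end loops. The strong end loops numbered 0.973 (0.885 to 1.07) and 1.06 (0.982 to 1.14) times the number expected from the inner loops of the same chromosome and GC class, with class limits at 40, 45, 50 and 55%. For this comparison, chosen after the data were seen, the share was higher on 10 and lower on 12 of the 22 autosomes (exact two-sided sign test, adjusted p = 0.970). With classes of both GC content and loop length the ratios were 1.11 (1.01 to 1.22) and 1.20 (1.11 to 1.29). The share was higher on 13 and lower on 9 of the 22 autosomes (exact sign test, adjusted p = 0.611). The excess was largest on chromosomes 16 and 8 in both replicates. On chromosome 16, 1.69% and 1.97% of the end loops were strong, compared with 0.616% and 0.801% expected from these classes. On chromosome 8 the shares were 1.75% and 2.13%, compared with 1.03% and 1.26%. The pooled ratios without these chromosomes were not computed. With classes of length and anchor width the ratios were 1.36 and 1.51, and with classes of length and promoters 1.5 and 1.63. GC content varies together with promoters, CpG islands and anchor width in these anchors, and their parts cannot be told apart from these counts.

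**Figure D2:**
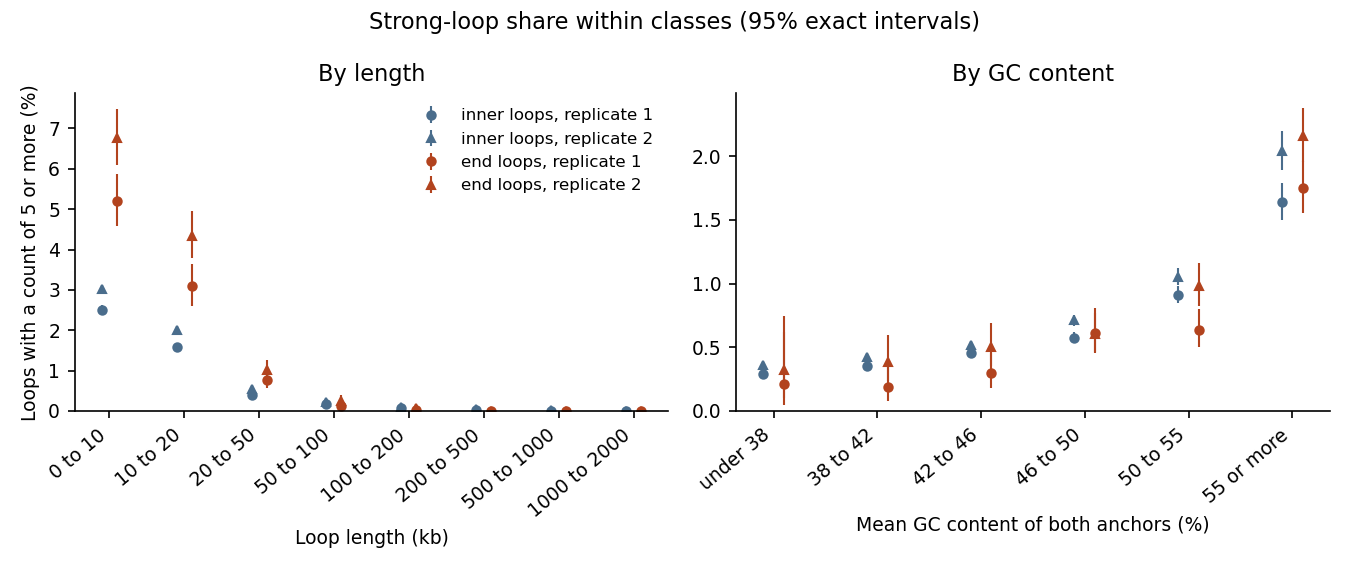
Share of loops with a count of 5 or more (%, vertical axes) by loop length (left) and by the mean GC content of both anchors (right), for end and inner loops of each replicate, with exact binomial 95% intervals. End loops lay above inner loops in the 3 length classes below 50 kb, whereas at 55% GC or more the end shares of 1.75% and 2.16% were close to the inner shares of 1.64% and 2.04%.

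The share changed with the distance from the end. In anchors of the outermost 0.5 Mb, 0.683% of the loops were strong in replicate 1 and 0.979% in replicate 2, where a loop between 2 distance classes counts in both. From 1.5 to 2 Mb the shares were 0.804% and 1.06%, and from 2.5 to 3 Mb 0.534% and 0.645%. Beyond the 3 Mb limit, at 3 to 4 Mb, they were 0.687% and 0.728%, and beyond 30 Mb 0.401% and 0.489%. The mean GC content of the anchors was 51.1% at 1.5 to 2 Mb and 40.5% beyond 30 Mb. The limit of 3 Mb did not mark a step. The 354 anchors of the last 0.1 Mb inside it had shares of 0.524% and 0.675%, and the 348 anchors of the next 0.1 Mb outside had 0.422% and 0.549%.

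**Figure D3:**
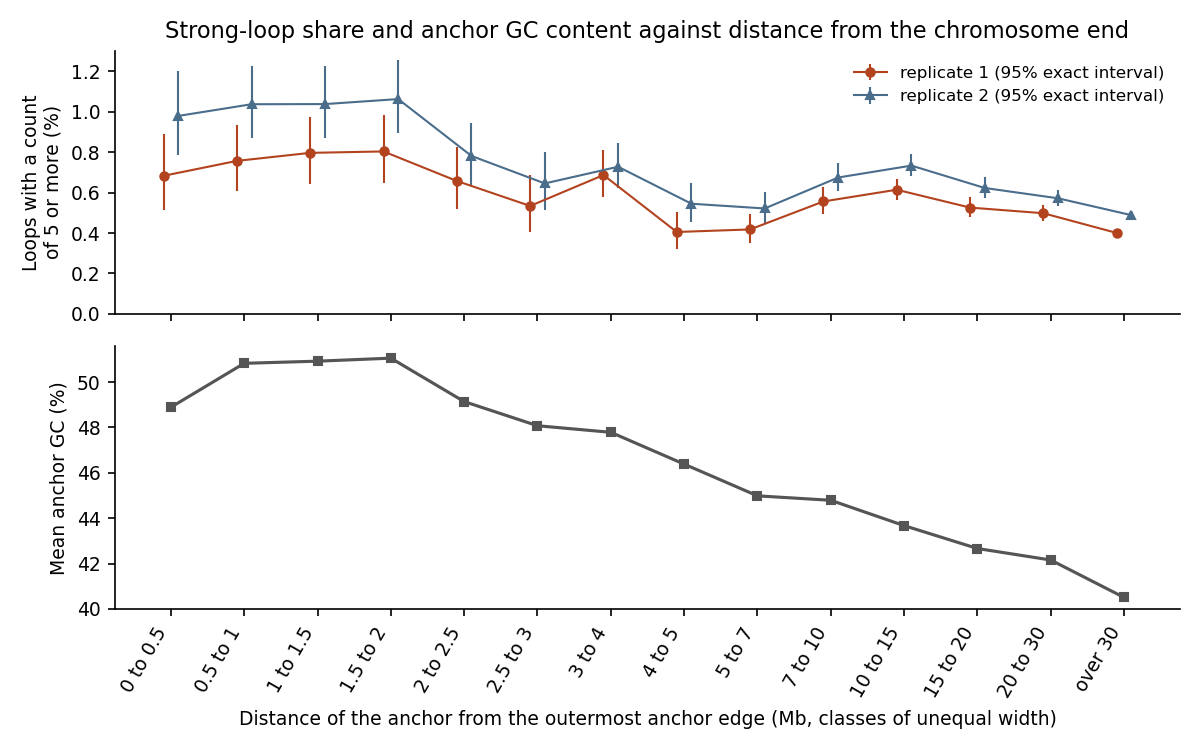
Share of loops with a count of 5 or more (%, upper panel, exact binomial 95% intervals, 1 line per replicate) and mean GC content of the anchors (%, lower panel) by distance from the outermost anchor edge (Mb, classes of unequal width). Both were highest within the outer 2 Mb, and the strong-loop share was higher again between 7 and 15 Mb, where GC content was lower than at the ends.

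The 39 ends differed widely among themselves. The mean strong-loop share of the replicates ranged from 0 to 2.23%, with a median of 0.703%. It exceeded the inner share of the same chromosome in both replicates at 23 ends and lay below it in both at 9. The q ends had a pooled share of 1.15% ± 0.178 and the p ends 0.892% ± 0.205 (SD, n = 2), a difference that was not tested. The ends kept much of their order between the replicates (Pearson r = 0.73, Spearman rho = 0.77 over 39 ends).

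The 4 highest ends were 8q, 17q, 19q and 16q. At 8q, 55 of 2746 and 75 of 3063 loops were strong, 2.00% and 2.45%. At 17q the shares were 2.02% and 2.32%, and at 16q 1.86% and 2.06%. At 19q, with 12 of 556 and 12 of 633 strong loops, they were 2.16% and 1.90%, with intervals from 0.983% to 3.74%. HCT116 cells are known to carry extra copies of parts of 8q, 10q, 16q and 17q, and extra copies of a region add counts to all of its anchor pairs. The counts at 8q, 17q and 16q were 2.31, 2.14 and 1.98 times the distance expectation, whereas those at 19q were 1.07 times. Copy number was not measured in these tables and its part in the shares was not tested. Without chromosomes 8, 10, 16 and 17, an alternative chosen after the data were seen, the share remained higher at the ends on 16 of 18 autosomes, with a median difference of 0.25 points (exact two-sided sign test, adjusted p = 0.00306).

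The 4 lowest ends were 3p, 11q, 4q and 1q. At 11q none of 400 and 475 loops was strong (upper 95% limits 0.918% and 0.774%), although its 138 anchors had a mean GC content of 47.5%. At 4q, 1 of 1308 and 2 of 1500 loops were strong, 0.0765% and 0.133%, and at 1q 1 of 808 and 3 of 897. The 4q end had 332 anchors, but only 0.602% of them held a start site, and their mean GC content was 40.1%. The 3p end gave little information, since only 19 anchors lay in its 3 Mb, beside a stretch of 2.06 Mb without anchors, and they had 14 and 22 loops. The 10q end had only 44 anchors and 45 and 51 loops, and its single strong loop was in replicate 1. Leaving out 3p and 10q, chosen after the data were seen, gave a higher share on 19 of 22 autosomes (exact sign test, adjusted p = 0.002).

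Over the 39 ends the strong-loop share went with GC content (r = 0.76, rho = 0.85) and with the share of anchors that held a start site (r = 0.79, rho = 0.79). It went less with the median width of the anchors (r = 0.49, rho = 0.53) and little with their number per Mb (r = 0.21, rho = 0.13). These ends come from the same 2 libraries, and the values are given as a description.

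**Figure D4:**
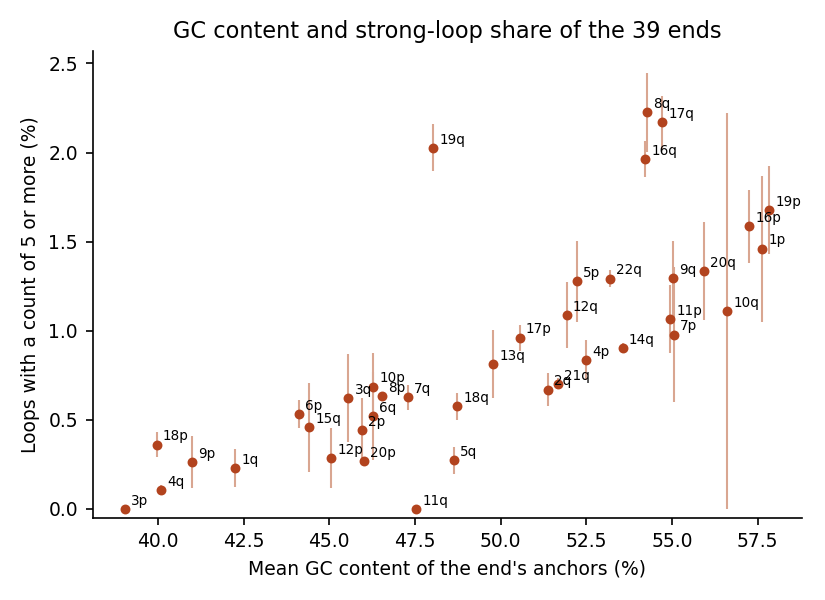
Mean GC content of the anchors (%, horizontal axis) and share of loops with a count of 5 or more (%, vertical axis) for each of the 39 ends; points are means of the 2 replicates and lines join the replicates. The ends with a GC content under 43% all lay under 0.5%, and 19q stood above the other ends of like GC content.

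**Figure D5:**
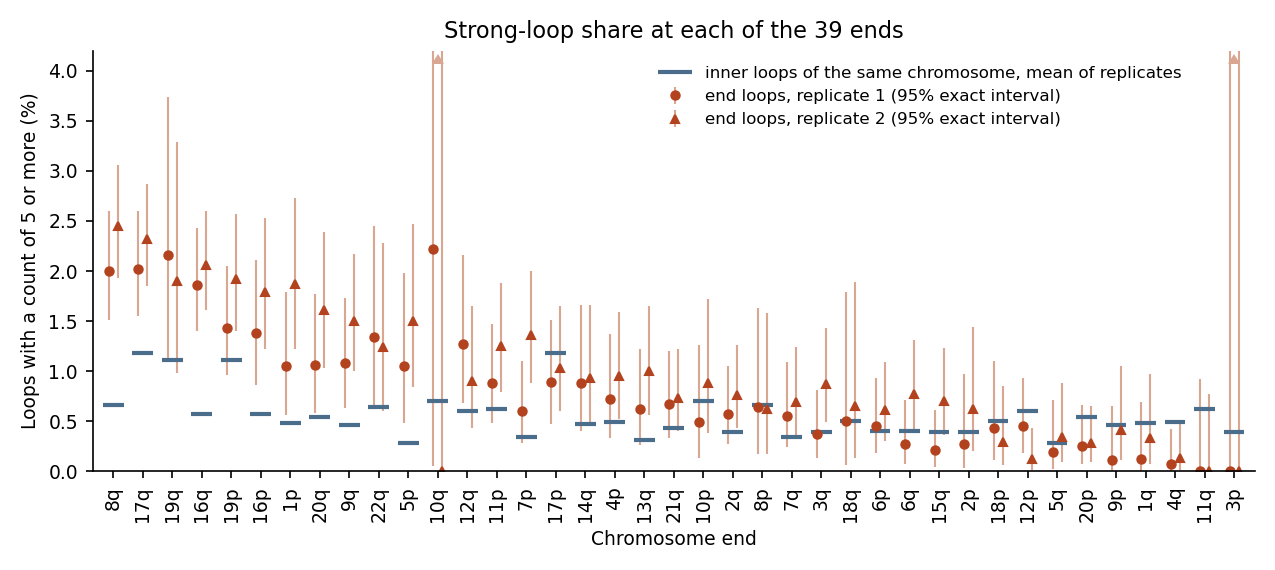
Share of loops with a count of 5 or more (%, vertical axis) at each of the 39 ends in order of the mean share, with exact binomial 95% intervals for each replicate and the inner share of the same chromosome as a blue bar. Arrows mark intervals that run past the axis at 10q and 3p, and the ends ranged from 2.23% at 8q to 0 at 11q and 3p.

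Single anchor pairs were then set against the distance expectation (one-sided Poisson test, adjusted over 51094602 pairs, adjusted p under 0.01). Among pairs with an end anchor, 82 of 2130998 (0.00385%) passed in replicate 1 and 115 (0.0054%) in replicate 2, where the background over all pairs was 0.00256% and 0.0036%. Both replicates called 28 of them, beside 628 over all pairs. End pairs made up 4.17% of the pairs tested. Once the expectation also took the total depth of each anchor into account, 0 and 1 end pairs passed, compared with 5 and 11 of all pairs. At an adjusted p under 0.05 the depth expectation called 1 end pair in each replicate. Of the strong end loops, 95.3% (93.0 to 97.1) of those in replicate 1 had a count in replicate 2, and 91.1% (88.7 to 93.2) in the other direction. For strong inner loops the figures were 92.3% and 89.0%. Of the 4558 and 6209 strong inner loops in the 2 replicates, 1725 had a count of 5 or more in both. Of the 451 and 666 strong end loops, 178, at 32 ends, did so.

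The strongest loops of these, taken as 1 per end, were short and mostly lay within or next to a gene. The first joined chr8:143884935-143893813 and chr8:143895390-143902266, 9.45 kb apart, with counts of 14 and 22. Neither anchor overlapped a protein-coding gene. Its summed count was 23.6 times the distance expectation (16.5 to 32.6) and 4.82 times the depth expectation (3.37 to 6.67). It was the only 1 of the 12 strongest loops that passed against the depth expectation (exact Poisson test on the summed counts, adjusted p = 3.01e-07).

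The loop at 17p joined chr17:2289657-2306297, which holds exons 1 to 6 of MNT, a repressor that binds the MYC partner MAX, with an intron of METTL16, an RNA methyltransferase, at chr17:2308865-2311908. Its counts were 13 and 20. At 17q, counts of 10 and 19 joined an intron of CCDC57 at chr17:80163326-80166650 with the anchor of its first exon. At 19q, counts of 16 and 11 joined the anchor with the start site of U2AF2, a splicing factor that recognises the 3′ splice site, at chr19:56164111-56169115 with exons 2 to 7 of the same gene. At 5p, counts of 12 and 15 lay within TRIP13, an ATPase of the mitotic checkpoint. At 2q, counts of 14 and 12 lay between introns of HDAC4, a histone deacetylase. These 5 loops had 14.9 to 28.2 times the count expected by distance, and against the depth expectation their ratios ranged from 1.33 to 3.18.

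Of the other loops ranked this way, those at 9q and 2p joined promoters of neighbouring genes and the rest did not. At 14q, counts of 15 and 9 joined exon 8 of CRIP2 with the anchor that holds the start sites of CRIP1 and TEDC1, where CRIP1 and CRIP2 encode small LIM-domain proteins. At 9q, counts of 12 and 10 joined the anchors of UAP1L1 and of MAN1B1, a mannosidase of the endoplasmic reticulum. At 2p, counts of 11 and 9 joined the anchor with the start sites of SH3YL1 and ACP1 to that of ALKAL2, a ligand of the receptor ALK. The midpoints of these 2p anchors lay 18.5 kb apart and their inner edges 5.4 kb. At 19p, counts of 7 and 13 joined the SBNO2 start site with an intron of STK11, a tumour suppressor kinase, and at 16q counts of 6 and 16 lay within CBFA2T3, a transcriptional corepressor.

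Of the 178 end loops strong in both replicates, 15, at 10 ends, spanned 20 kb or more. The highest was at 20q, where the anchor with the start site of NTSR1, the neurotensin receptor, at chr20:61329917-61343598 was joined to an intron of the gene at chr20:61359584-61373190, 29.6 kb away. Its counts were 8 and 13, 46.8 times the distance expectation (28.9 to 71.5) and 1.65 times the depth expectation (1.02 to 2.52). The promoter stretch of NTSR1 printed above lies in the first of these anchors. At 5p, counts of 5 and 8 spanned 51.7 kb within AHRR, a repressor of the aryl hydrocarbon receptor. At 9q, counts of 6 and 5 joined the anchors of LCN12 and of PAXX, a factor of DNA end joining, over 37.6 kb. The remaining loops shown by this order lay in ZC3H3 at 8q (7 and 13), BANP at 16q (9 and 5), AHNAK2 at 14q (7 and 6), outside protein-coding genes at 17q (7 and 6) and, with 1 of its anchors, in GALNT9 at 12q (6 and 6). Wide anchors left shorter gaps, with inner edges 7.07 kb apart at 8q, 9.5 kb at 12q and 14.9 kb at 16q. At 5p, 9q, 14q and 17q the inner edges lay 27.2 to 41.2 kb apart.

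Some end anchors had several strong partners. With the counts of both replicates summed, 2941 of 10666 end anchors (27.6%) had at least 1 partner at a count of 5 or more, compared with 15.7% of the inner anchors. At least 5 such partners were found for 90 end anchors (0.844%) and 850 inner anchors (0.359%). The extreme was lower at the ends, with at most 10 partners compared with 33 inside. The 10 partners belonged to the anchor of the first exon of SPG7, a mitochondrial protease, at chr16:89567858-89576260, and the farthest lay 182 kb away. An anchor in an intron of BAIAP2 at 17q and the NTSR1 intron anchor at 20q each had 9. An anchor in an intron of PLEC, which encodes the cytoskeletal linker plectin, at 8q and the anchor of CBARP and ATP5F1D at 19p each had 8. An anchor outside protein-coding genes at 16p and the PLXNB2 promoter anchor at 22q had 7, and the AHRR anchor at 5p had 6. The 8 anchors named were 7.05 to 13.6 kb wide, compared with a median of 2763.5 bp over all end anchors. Numbers of partners were not adjusted for anchor width or depth.

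The genes of the ends were described by lists. Of the 1155 protein-coding promoters in end anchors, 674 (58.4%) had a loop with a summed count of 5 or more, compared with 39.5% of the 11359 inner promoters and 41.2% of all. Of 40 genes of the intestine or of colorectal cancer at the ends, 31 had their start site in an anchor and 19 of these had such a loop. MSLN, which encodes mesothelin, had strong loops with highest counts of 9 and 8. RECQL4, a DNA helicase, had 6 and 8, the receptor NOTCH1 5 and 6, and SQSTM1, an autophagy receptor, 5 and 7. The start-site anchors of the kinase AKT1 and of STK11, TYMS, YES1 and IGF2 had no such loop, and those of ASCL2, TERT and FGFR3 lay in no anchor.

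Of 27 widely expressed genes at the ends, 25 had their start site in an anchor and 17 of these had a loop with a summed count of 5 or more. ACTG1, which encodes cytoplasmic actin, had highest counts of 13 and 11, and the neighbours P4HB and ARHGDIA were joined promoter to promoter with counts of 4 and 7. CIRBP, an RNA-binding protein induced by cold, had 11 and 6 with the EFNA2 promoter. Of 17 genes used mainly in neurons, 6 had their start site in an anchor and 4 of the 6 had such a loop. Over all 1692 protein-coding genes of the ends, 68.2% had their start site in an anchor. The start sites of CHL1, CNTN6 and CNTN4, adhesion genes of the anchor-poor 3p end, and of OPCML at 11q were in no anchor. Of 6 mucin genes at 11p and 3q, 5 had their start site in an anchor and all 5 had such a loop, with counts of 10 and 9 for the secreted intestinal mucin MUC2 and of 2 and 6 for MUC20. The shares with such a loop were 61.3%, 68.0%, 66.7% and 100% in the 4 lists, beside 58.4% over all end promoters, and the lists hold 5 to 31 promoters each. As a check of the cell type, 3 of 6 epithelial markers, the keratins KRT8 and KRT18 and the adhesion molecule EPCAM, had start sites in anchors, compared with 64.8% of inner genes, and CDH1, VIL1 and CDX2 did not. KRT8 and KRT18 had a loop with a summed count of 5 or more and EPCAM had none. Among 5 markers of other lineages only PTPRC had its start site in an anchor, with no such loop.

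Some end anchors held interstitial telomere-like repeats. A pair of tandem copies of the telomere unit TTAGGG, searched on both strands, occurred in 25 end anchors (0.234%) and in 157 inner anchors (0.0664%). The end anchor with the most matches of this pair, overlapping ones included, was the outermost one of 11p, chr11:190770-193478, with 9. An inner anchor, chr2:182137538-182142211, 60.9 Mb from an end, also held 9. The 11p anchor had 5 and 7 loops in the 2 replicates.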

How the data were processed

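The authors crosslinked HCT116 cells, cut chromatin with MboI, ligated it and pulled it down with an H3K27ac antibody. The submitters' processing notes name HiC-Pro and the build hg19, and the methods name hichipper for loops, with versions not given in the sources used here. The deposited tables hold raw counts of paired-end tags per anchor pair of 1 chromosome, not normalized, with pairs of an anchor with itself, in 1 anchor set for both replicates. Total counts per replicate were 1885470 and 2131462, so most loops have a count of 1 (85.6% and 84.4% of end loops). Anchor starts and ends were found to lie on GATC sites of GRCh37 (100.0% of ends), and sequence, GC content and genes (GENCODE release 44 on GRCh37, canonical start sites) were taken on that build.

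Loops up to 2 Mb entered the comparisons. The same-anchor share was taken over all counts of an anchor, longer contacts included, and the share of contacts over more than 2 Mb was described. Ends and inner anchors were compared per autosome, as the mean of both replicates, by the exact two-sided sign test with Benjamini-Hochberg adjustment over 7 measures. Anchor pairs were tested by a one-sided Poisson test against the mean count of their distance class (60 classes on a log scale), or of distance and anchor depth balanced in 20 rounds with the pair's own count left out and an offset of 0.5. Shares have exact binomial (Clopper-Pearson) and counts exact Poisson 95% intervals. Loops named have counts of 5 or more in both replicates, ranked by summed count with at most 1 per end (12 in all, and 8 of at least 20 kb); anchors named have the most partners at a summed count of 5 or more, at most 1 per end (8); the 4 highest and 4 lowest ends and listed genes are also named. The members, lists and rules were chosen with earlier results of these data known. Analyses used Python 3.11.15, numpy 2.4.6, pandas 2.3.3, SciPy 1.17.1 and numba 0.67.0, and were tested on simulated data. Alternatives concern replicates, window, inner anchors, thresholds, loop length and expectation. The promoter sequence of 1 further gene is not reported here.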

Additional observations from a re-analysis of the deposited data

Results flagged for a closer look

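Contacts over more than 2 Mb entered the comparisons above only as a share of counts and in the total counts behind the same-anchor share. Among them, anchors of the p end and of the q end of the same chromosome shared a summed count of 415 (202 and 213 in the 2 replicates) over 17 chromosomes, which is a signal outside the main measurement. There were 1253080 such anchor pairs, and 1275129 pairs with a count of 120 and 143 between the p end and the anchors 3 to 6 Mb from the q end, which lie closer to it. Against the count expected from the long-range depth of both windows the p-to-q ratio was 0.981, compared with 0.523, 0.489 and 0.497 for windows from 3, 6 and 9 Mb. Chromosomes 16 and 17 held 191 of the 415 counts, and over the other 15 chromosomes, an alternative chosen after the data were seen, the ratio was 0.684, compared with 0.436, 0.473 and 0.526. The p-to-q window was the higher on 11, 12 and 12 of the 17 chromosomes, and the differences were not tested.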

How the results depend on the processing

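The strong-loop share kept its direction and its call in 10 of the 12 alternatives set out in advance. With a 1 Mb window the difference was 0.26 points (exact sign test, adjusted p = 0.0918), and with a strong loop set at 10 or more it was -0.0059 (10 of 22 autosomes higher), and -0.0033 at the inner length distribution, where few loops remain. Inner loops of the same length and GC class, chosen after the data were seen, left 0.0544 points and the GC class alone -0.0255. Without a replicate the difference was 0.26 to 0.41 points, and 0.26 to 0.40 at the inner length distribution. The length ratio passed no test with windows of 1 and 5 Mb (0.945 and 0.923), loops up to 1 Mb (0.923) or without chromosomes 8, 10 and 17 (0.914), was 0.875 to 0.931 without a replicate, and turned to 1.16 with inner anchors 3 to 10 Mb from an end. The share under 20 kb, not called, changed sign without a replicate (-0.13 to 0.15 points), with windows of 1 and 5 Mb (0.0077 and 0.17), without chromosomes 8, 10 and 17 (0.12) and with both anchors at the end (1.77, exact sign test, adjusted p = 0.00017), and passed the test at -1.50 points against anchors 3 to 10 Mb from an end. In the setting of 3 to 10 Mb both anchors of an inner loop had to lie in that band. Longer inner loops were thereby left out more often. Loops per anchor were 0.978 times the inner value with a 1 Mb window and 1.08 times with loops up to 1 Mb (exact sign test, adjusted p = 0.00608). The count over expectation became 0.995 with anchor depth, which sets each anchor's total to its expectation by construction, and the mean number of end pairs called moved from 98.5 to 0.5, or to 158.5 at an adjusted p under 0.05. The count over expectation was 1.189 to 1.192 and the same-anchor share 2.37 to 2.45 points without a replicate, and pairs called were 82 to 115. All 20 named loops and long loops, with NTSR1 in both, fell outside their interval with anchor depth. No paired analysis was possible by replicate number because there is 1 group, and ends and inner anchors were compared within chromosomes. With counts of 1 for most loops, depth limits single loops more than shares over many loops.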
